A study of Mus musculus with 25 samples.

Results

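The microRNA precursors mmu-mir-296 and mmu-mir-298, called mir-296 and mir-298 here, were followed in mouse blood over adult life. They are 2 of the 1193 precursor (hairpin) rows of the count table, of which 865 had at least 1 count, and they were taken by name over all 25 libraries. Total RNA of blood from male mice of the inbred strain C57BL/6 was sequenced for its small RNA, and the labels name no treatment or engineered allele. The mice were 2, 9, 15, 24 or 30 months old, with 5 libraries from separately numbered animals at each age. The pair was chosen by its counts, because both members were lower at every later age than at 2 months in these same libraries. Their levels by age are therefore given as a description, without a test. Tests are given for the ratio between the members and for their joint spread within an age. The choice did not use these directly. The ratio is formed from the same counts, however, so its p-values are not wholly free of the choice.

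A microRNA precursor is a short hairpin RNA that is cut to a mature RNA of its 5′ arm (5p) or 3′ arm (3p). The mature RNA guides silencing proteins to messenger RNAs that pair with its seed, the bases 2 to 8. The Gnas region, which encodes the stimulatory G protein alpha subunit, is imprinted, meaning that several of its transcripts come from the maternal or the paternal copy only. Nespas is its paternally expressed antisense RNA, and mir-296 and mir-298 are known as imprinted microRNAs of the same paternal transcription unit. miR-296 is known from endothelial cells, where it lowers the growth factor receptor sorting protein Hgs, and from differentiating embryonic stem cells, where it acts on Nanog. miR-298 is known to act on the messenger RNA of beta-secretase, Bace1.

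The hairpins are shown first because the table counts reads per hairpin and does not separate the arms. Both were found in RefSeq sequences of the mouse assembly GRCm38.p6, 5′ to 3′, with the mature 5p and 3p sequences in capitals.
mir-296: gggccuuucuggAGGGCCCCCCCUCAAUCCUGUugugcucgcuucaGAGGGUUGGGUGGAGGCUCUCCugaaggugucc
mir-298: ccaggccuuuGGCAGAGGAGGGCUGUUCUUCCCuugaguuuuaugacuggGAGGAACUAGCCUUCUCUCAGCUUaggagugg
The mature sequences follow with the seed in capitals, to show whether the members could pair with the same targets.
mmu-miR-296-5p: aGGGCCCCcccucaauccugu
mmu-miR-296-3p: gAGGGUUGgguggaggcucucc
mmu-miR-298-5p: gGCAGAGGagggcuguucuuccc
mmu-miR-298-3p: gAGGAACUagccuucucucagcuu
The 4 seeds differ from each other, and 0 of the other mature sequences in the table of 1738 carried any of them. The members thus share a place in the genome but no seed. The hairpin of mir-296 is 79 bases long with 63.3% G and C, and that of mir-298 is 82 bases long with 53.7%.

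In GRCm38 mir-296 lies at chr2:174267047-174267125 and mir-298 at chr2:174267504-174267585, both on the minus strand and 378 bases apart. These are positions in that assembly, since the sources used here do not give the build of the authors. GENCODE vM21 places no gene other than the microRNAs across the pair on either strand, so neither hairpin lies in an annotated exon, intron or UTR. The nearest end of Nespas, on the same strand and upstream of the pair, is 13652 bases away, and Gnas, on the opposite strand, is 16735 bases away.

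**Figure D1:**
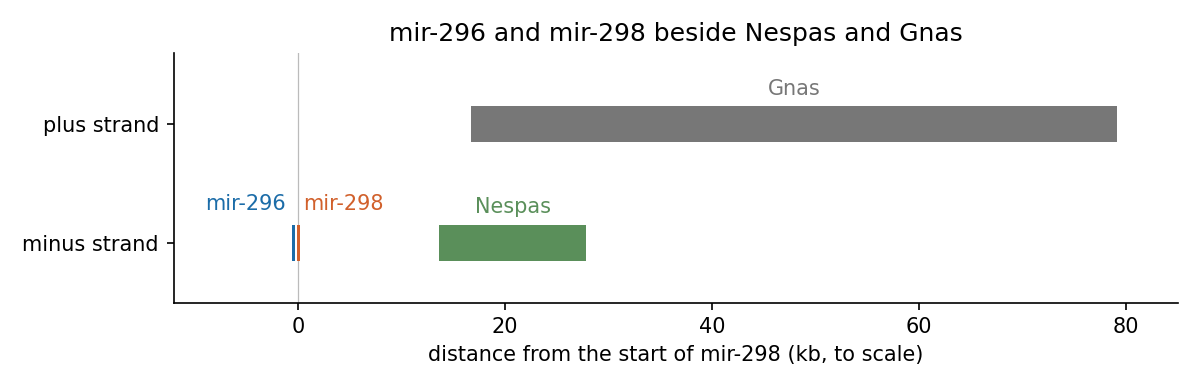
Map of the locus to scale, with distance from the start of mir-298 in kb on the horizontal axis and the strands on the vertical axis. Boxes are gene spans: the pair sits on the minus strand, 13652 bases from the end of Nespas, and Gnas runs on the plus strand.

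The deposited table held 4.884 to 24.25 M counts per library, with medians by age of 10.44 M (30 months) to 17.3 M (24 months). The smallest libraries were 24 months replicate 4, with 4.884 M, and 30 months replicate 3, with 5.747 M. Reads carry no molecular identifier, and the floors and intervals given cover counting error only. Of the 1193 rows, 855 had too few counts and the rest are the tested precursors. Levels are in CPM, the count of a precursor relative to the total of its library, with totals scaled by the trimmed mean of M-values (TMM). The sample carried the marker precursors of blood, with mir-451a of red cells at 94620 ± 14550 CPM at 2 months (SD, n = 5). Of liver, the defining marker mir-122 had 131 counts over all libraries. Of striated muscle, the defining markers mir-1a-1 and mir-1a-2 had 4 and 17 counts, while the mir-133a copies of the same list were present.

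mir-296 was at 19.8% of its 2-month level by 9 months and at 6.66% of it by 30 months. At 2 months the 5 libraries had 103, 104, 81.1, 109 and 86.9 CPM, from 1275 to 2115 reads each. At 9 months they had 18.4, 16.7, 13.3, 21.9 and 25.4 CPM. At 15 months they had 24.2, 12.6, 12.2, 14.6 and 15.9 CPM. No library of a later age came near the lowest 2-month value of 81.1 CPM. The 9 and 15 month groups overlapped across most of their ranges. At 24 months the libraries had 7.90, 8.96, 11.5, 2.81 and 5.46 CPM, from 16 to 291 reads. At 30 months they had 6.32, 5.89, 6.38, 7.51 and 6.06 CPM, from 45 to 84 reads. With TMM scaling all 24-month values lay below the lowest of 15 months (12.2 CPM), but scaled by library totals alone the highest of 24 months was 14.8 and the lowest of 15 months 11.7 CPM, so these groups overlapped. The 24 and 30 month groups overlapped with TMM.

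The mean CPM of mir-296, with the SD over n = 5 libraries, was 96.6 ± 11.9 at 2 months, 19.1 ± 4.69 at 9 months, 15.9 ± 4.88 at 15 months, 7.32 ± 3.32 at 24 months and 6.43 ± 0.633 at 30 months. Ages therefore ordered from high to low as 2, 9, 15, 24 and 30 months. Of the neighbours in that order, 2 and 9 months were apart with either scaling and 15 and 24 months with TMM only, while 9 and 15 months, and 24 and 30 months, differed by less than the spread between libraries. The mean log2 values differed by −0.28 between 9 and 15 months, where the pooled SD was 0.38, and by −0.04 between 24 and 30 months, where it was 0.56. Of all tested precursors, 1.48% had every 9-month library below every 2-month library, 1.48% had this for 15 months, 5.33% for 24 months and 5.03% for 30 months against 2 months, and 0.296% for 24 against 15 months. The last share, which holds with TMM scaling, is mir-296 alone. These contrasts were among those that chose the pair, and the shares are given as background.

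mir-298 had the same first step at a much lower level. At 2 months its libraries had 8.51, 8.79, 7.19, 6.89 and 7.09 CPM, from 113 to 152 reads. At 9 months they had 2.43, 1.79, 1.14, 1.69 and 2.42 CPM. At 15 months they had 1.84, 2.86, 1.41, 1.66 and 1.21 CPM. Every library of these ages lay below the lowest 2-month value of 6.89 CPM. At 24 months the values were 0.929, 1.12, 1.26, 1.58 and 0.801 CPM, from 9 to 32 reads. At 30 months they were 0.828, 0.645, 3.83, 0.601 and 0.695 CPM, from 6 to 27 reads. Replicate 3 of 30 months stood apart at 3.83 CPM, higher than every library of 9, 15 or 24 months, and was still below the 2-month range. For scale, a floor of 3 counts came to at most 0.243 CPM in a library of 2, 9 or 15 months, 0.528 CPM at 24 months and 0.425 CPM at 30 months. No library was at 0 for either member.

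The mean CPM of mir-298, with the SD over n = 5 libraries, was 7.69 ± 0.884 at 2 months, 1.89 ± 0.544 at 9 months, 1.795 ± 0.640 at 15 months, 1.14 ± 0.304 at 24 months and 1.32 ± 1.40 at 30 months. Without replicate 3 the 30-month mean was 0.692 ± 0.0984 CPM (SD, n = 4), or 9.00% of the 2-month level in place of 17.1%. From 9 months on, each age overlapped the next, so the order of the 4 later ages was not resolved. Only the 2-month group was apart from its neighbour.

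**Figure D2:**
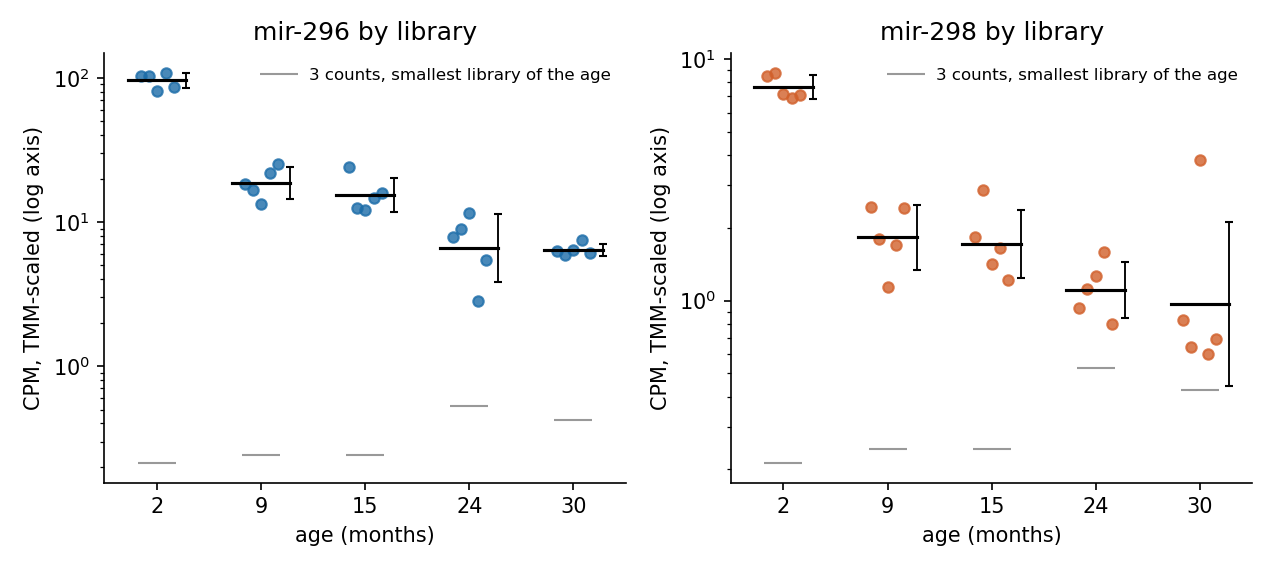
Level of mir-296 (left) and mir-298 (right) in each library by age in months, in TMM-scaled CPM on log axes. Points are libraries in replicate order, black lines with bars are the mean and SD of the log2 values, and grey dashes mark 3 counts in the smallest library of each age. For mir-296 all later libraries are at or below 25.4 CPM against at least 81.1 CPM at 2 months, and for mir-298 30 months replicate 3 stands apart at 3.83 CPM.

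Fitted over all libraries with edgeR's quasi-likelihood model, the log2 change of mir-296 from 2 months was −2.34 (SE 0.25) at 9 months, −2.60 (SE 0.25) at 15 months, −3.69 (SE 0.27) at 24 months and −3.91 (SE 0.27) at 30 months. These are 5.05-, 6.08-, 12.9- and 15.0-fold lower levels. The log2 change of mir-298 was −2.01 (SE 0.32), −2.08 (SE 0.32), −2.79 (SE 0.34) and −2.67 (SE 0.36) at the same ages. The 4 comparisons share the 2-month libraries. Between consecutive later ages the log2 change of mir-296 was −0.27 (SE 0.24) from 9 to 15 months, −1.09 (SE 0.25) from 15 to 24 months and −0.22 (SE 0.25) from 24 to 30 months. For mir-298 these were −0.07 (SE 0.34), −0.71 (SE 0.36) and 0.13 (SE 0.40). The first interval held 59.8% of the log2 change of mir-296 over 30 months and 75.3% of that of mir-298. Without 30 months replicate 3 the 30-month change of mir-298 was −3.40, of which its 9-month change is a smaller share. The shares of the members therefore do not show a difference in timing.

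mir-296 was among the more abundant tested precursors at 2 months and near their middle at 30 months. Its median rank by CPM among them was 87 at 2 months, 135 at 9 months, 140 at 15 months, 162 at 24 months and 168 at 30 months. mir-298 had median ranks of 160, 228, 235, 246.5 and 281.5 at these ages. Each lane, by its number in the column headers, held libraries of several ages. The headers name no flow cell, so a shared lane number need not mean a shared run. In lanes 4 to 8, each of which held a 2-month library, every later library was below the 2-month library of their own lane for both members. For mir-296 the within-lane log2 differences ran from −2.96 to −1.89 at 9 months, from −3.07 to −1.84 at 15 months, from −5.17 to −3.27 at 24 months and from −4.20 to −3.68 at 30 months. For mir-298 they ran from −2.92 to −1.50, from −2.56 to −1.93, from −3.40 to −2.40 and from −3.80 to −0.88. Lane 3 held no 2-month library and gives no such value. The index sequences follow the ages in alphabetical order except in 30 months replicates 4 and 5, where mir-296 was at 7.51 and 6.06 CPM, beside 5.89 to 6.38 CPM in the others of that age.

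The spread between libraries of one age was set beside counting error. Chi-square per degree of freedom, which is near 1 when libraries differ only by counting, was 24.5 for mir-296 at 2 months, 15.5 at 9 months, 29.2 at 15 months, 16.2 at 24 months and 0.634 at 30 months. For mir-298 it was 1.67, 2.15, 4.05, 0.882 and 13.2 at these ages. Without replicate 3 the value at 30 months was 0.166. The coefficient of variation of mir-296 was 12.3% at 2 months, 45.3% at 24 months and 9.84% at 30 months, where counting alone gives 2.52%, 13.6% and 12.6%. A spread like that at 2 months was therefore not detectable at the depth of 30 months.

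The ratio of mir-296 to mir-298 reads was lower at the 2 oldest ages in the main test, a call that several alternatives ended. At 2 months the 5 libraries held 12.1, 11.8, 11.3, 15.8 and 12.3 reads of mir-296 per read of mir-298. At 9 months they held 7.59, 9.29, 11.7, 12.9 and 10.5, and at 15 months 13.2, 4.4, 8.61, 8.8 and 13.1. Both of these groups overlapped the 2-month group. At 24 months they held 8.5, 8.0, 9.09, 1.78 and 6.82, and at 30 months 7.64, 9.14, 1.67, 12.5 and 8.71. All 5 libraries of 24 months and 4 of 5 of 30 months lay below the lowest 2-month ratio.

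The ratio needs no scaling between libraries, and it was compared on the log2 scale with 0.5 added to each count. Its mean, with the SD over n = 5 libraries, was 3.64 ± 0.19 at 2 months, 3.33 ± 0.29 at 9 months, 3.14 ± 0.64 at 15 months, 2.54 ± 0.99 at 24 months and 2.66 ± 1.11 at 30 months. By exact two-sided permutation tests, adjusted over the 4 ages by the Benjamini-Hochberg method, the ratio was lower at 24 months by −1.10 (SE 0.45, exact p = 0.00794, adjusted p = 0.0317) and at 30 months by −0.99 (SE 0.50, exact p = 0.0159, adjusted p = 0.0317). At 9 months the difference was −0.31 (SE 0.16, exact p = 0.0873, adjusted p = 0.116), with 4 of 5 libraries below the 2-month mean. At 15 months it was −0.50 (SE 0.30, exact p = 0.119, adjusted p = 0.119), with 3 of 5 below. The smallest p that 5 against 5 libraries allow is 0.00794. Each exact p is the share of relabellings of the libraries of the 2 ages that gave a difference at least as large. Beyond sex, strain, age and number, the labels do not describe the animals.

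A single library at each of these ages carried a large part of the difference. In 24 months replicate 4 mir-298 held 9 of the 25 reads of the pair, or 36.0% (Wilson 95% interval 20.3 to 55.5%), and in 30 months replicate 3 it held 27 of 72, or 37.5% (27.2 to 49.0%). In the other later libraries its share ran from 7.05 to 18.5%, and at 2 months from 5.96 to 8.14%. These are the 2 smallest libraries of the series, with 4.884 and 5.747 M counts. The part of depth in the result was not tested beyond thinning every library to the smallest total. The differences were then −1.53 (exact permutation, adjusted p = 0.0317) and −1.39 (adjusted p = 0.0476), and that at 9 months was −0.66. Thinning was a single random draw, left 24 months replicate 4 as it was and did not make the reads of the pair equal between ages. It therefore cannot settle the part of depth. Without 24 months replicate 4 the 24-month difference was −0.67 (exact permutation, adjusted p = 0.0317), and without 30 months replicate 3 the 30-month difference was −0.51 and no longer passed (adjusted p = 0.0635). As differences of medians the values were −0.62 and −0.55, and neither passed (exact permutation, adjusted p = 0.0952 each). Without the 3 libraries whose ratio stood apart, 1 each at 2, 24 and 30 months, they were −0.59 and −0.42 (exact permutation, adjusted p = 0.114 each). With fewer libraries the smallest possible p is also larger. Both calls also ended without any 1 of 2 months replicates 1, 2, 4 and 5 (exact permutation, adjusted p = 0.0635). There the 24-month difference ran from −1.13 to −1.02, with an exact p of 0.0159, the smallest that 4 against 5 libraries allow. The end of the 24-month call in these runs can thus follow from the lower number of libraries alone.

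**Figure D3:**
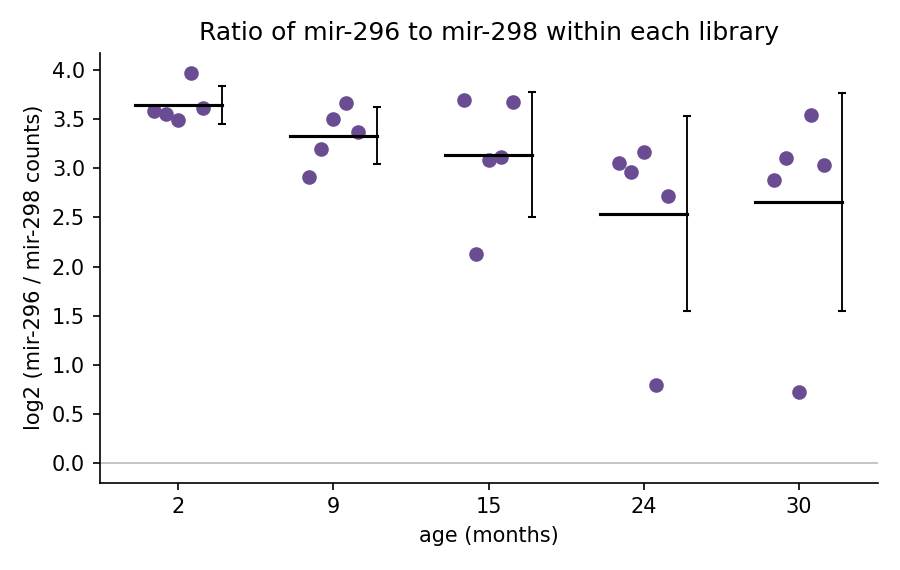
Log2 ratio of mir-296 to mir-298 counts in each library by age in months, with 0.5 added to each count. Points are libraries in replicate order and black lines with bars are the mean and SD: 24 months replicate 4 (0.80) and 30 months replicate 3 (0.73) lie far below the 2-month mean of 3.64.

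Animals of the same age that were higher in one member were not detectably higher in the other. Counting error of mir-298 limits this comparison, so a shared spread could be missed. Counting alone gives mir-298 a coefficient of variation of 19.7% at 9 months, 19.2% at 15 months, 26.0% at 24 months and 34.1% at 30 months. After subtraction of the age means of log2 CPM, the correlation of mir-296 with mir-298 over the 25 libraries was r = −0.00121 (permutation within ages, p = 0.994) and Spearman's rho = 0.173 (permutation p = 0.423). Without the libraries farthest from the median of mir-296, 24 months replicates 3 and 4, r was 0.170 (permutation p = 0.357) and rho 0.329 (permutation p = 0.140). Over all 25 libraries, where age enters, r between them was 0.851 (rho 0.794), the highest that either member had with any other tested precursor, and without the 2-month libraries it was 0.452. In that smaller set r was taken only for the 5 other precursors most like each member over all libraries, named below. Of these, mir-484 (0.723), mir-144 (0.544), mir-98 (0.504) and mir-8114 (0.495) had a higher r with mir-296. With mir-298, mir-144 (0.495), let-7f-2 (0.472) and let-7f-1 (0.470) did. The remaining tested precursors were not compared there. These values share the scaling of each library and the falls on which the pair was chosen.

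Over all 25 libraries the other precursors had lower correlations with the members than the members had with each other. Among the 157 others whose mean reached 10 CPM in any age group, the most alike by Pearson correlation of log2 CPM over the 25 libraries were mir-98 of the let-7 family (r = 0.634), mir-144 of red cells (0.629), mir-484 (0.629), mir-8114 (0.619) and mir-652 (0.60). For mir-298 they were mir-31, known from T cells among others (0.632), mir-144 (0.611), let-7f-1 (0.601), its copy let-7f-2 (0.598) and mir-1198 (0.580). let-7f-1 and let-7f-2 give the same mature RNA and may share reads. After subtraction of the age means, r of these precursors ran from 0.07 to 0.56 with mir-296 and from 0.22 to 0.48 with mir-298. Between the members it was −0.00121. These precursors were picked for a high r over the same libraries, and their r within ages was not tested. At 9 months mir-98 stood at 70.9% of its 2-month mean, mir-144 at 75.7%, mir-484 at 96.5% and let-7f-1 at 72.8%, against 19.8% for mir-296 and 24.6% for mir-298. mir-31 was the lowest of these others at 44.2%, but stood at 59.1% by 30 months.

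**Figure D4:**
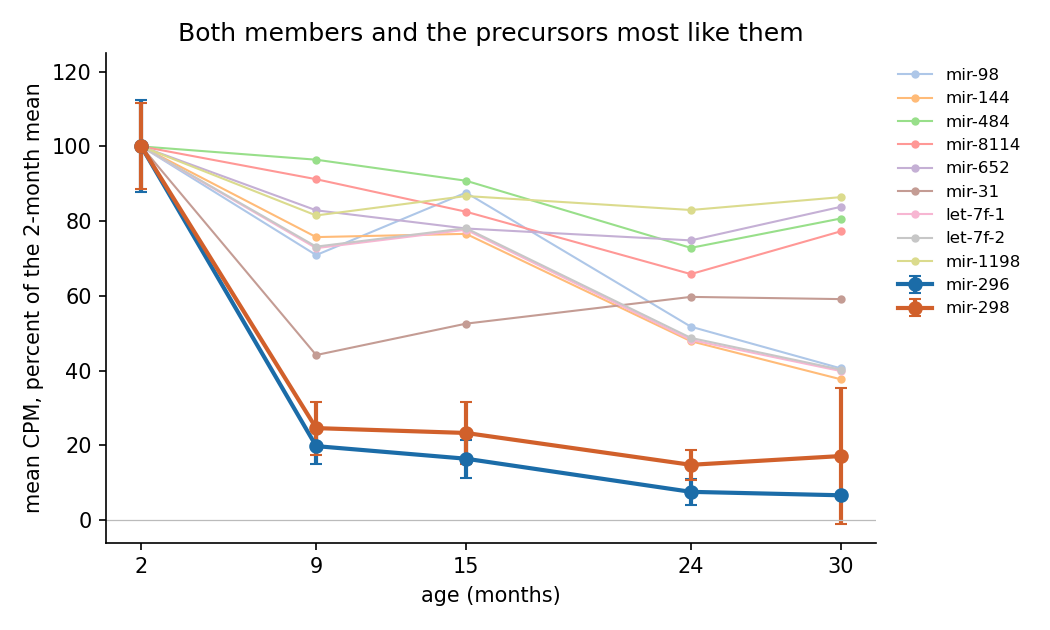
Mean CPM at each age in months as percent of the 2-month mean, for both members (thick lines, bars are the SD over 5 libraries in the same percent) and the 9 precursors most like them (thin lines, no bars). The 9 were picked among precursors whose mean reached 10 CPM in any age group. At 9 months the members stand at 19.8% and 24.6%, below the 44.2% of mir-31 and at least 70.9% of the rest.

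The other imprinted microRNAs of the table gave 10 that could be tested. The list held 71 precursors, from Mest, H19, Igf2, the Rasgrf1 region, the Magel2 region and the Dlk1-Dio3 cluster. Of these, 13 were at 0 in every library and 10 passed the filter on low counts. By edgeR's quasi-likelihood test at an adjusted p under 0.05, 0 of these 10 were lower and 1 was higher at 30 than at 2 months, where 5.03% of all tested precursors were lower and 9.17% higher. In the linear trend with age 0 were lower and 1 higher, where the shares were 9.17% and 10.7%. Counts this near the background say nothing particular of the list. The median log2 change of the 10 was −0.28 at 30 against 2 months, beside −0.04 over all tested precursors. The member that rose was mir-335, in the paternally expressed gene Mest, from 5.87 ± 1.25 to 12.3 ± 3.21 CPM (SD, n = 5 each, log2 change 1.07, SE 0.21, adjusted p = 0.00161). Of the Dlk1-Dio3 cluster, which is expressed from the maternal copy, mir-411 changed by −0.62 (SE 0.32, adjusted p = 0.221), mir-541 by −0.53 (SE 0.34, adjusted p = 0.336) and mir-136 by −0.42 (SE 0.35, adjusted p = 0.478), none past the test.

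Nearby precursors on the chromosome gave little to compare. Of the 5 nearest on each side, 0.566 to 15.628 Mb away, 3 were at 0 in every library, among them mir-6340, the closest, and 2 could be tested, which are named here after their values were seen. mir-133a-2, a muscle microRNA with a copy elsewhere that may share its reads, was at 44.8 ± 41.9 CPM at 2 months and 13.9 ± 7.86 CPM at 30 months (log2 change −1.69, SE 0.73, edgeR adjusted p = 0.137). mir-124-3, known from neurons, changed by −0.38 (SE 0.49, adjusted p = 0.676). The 3 nearest on each side, mir-6340, mir-7004, mir-7678, mir-7005, mir-3091 and mir-1a-1, had at most 15 counts in all libraries together. Hairpins at least as rich in G and C as mir-296 had log2 changes on both sides of 0. Among the 285 tested precursors with a sequence, 19 others had at least the 63.3% of mir-296, of which 0 were called lower and 1 higher at 30 against 2 months, with log2 changes from −0.93 to 0.83. Of the 101 others with at least the 53.7% of mir-298, 3 were called lower and 12 higher, with log2 changes from −3.30 to 0.91. Of all tested precursors 5.03% were lower and 9.17% higher.

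Markers of several blood cell types also differed with age, and their part in the levels of the pair was not tested. In bulk blood, fewer cells of a type and less RNA per cell cannot be told apart. Of the platelet and endothelial list (mir-126a, mir-199a-1, mir-199a-2 and mir-199b) 2 of 4 were lower at 30 than at 2 months and 3 of 4 fell in the trend, where 5.03% and 9.17% of all tested precursors did, and 0 rose. The summed level of this list ran from 13.4 to 18.1 CPM at 2 months, 4.95 to 18.4 CPM at 9 months, 8.34 to 19.6 CPM at 15 months, 5.97 to 14.2 CPM at 24 months and 3.13 to 8.64 CPM at 30 months. Its defining marker mir-126a fell from 12.9 CPM at 2 months to 5.05 CPM at 30 months (log2 change −1.35, SE 0.34, edgeR adjusted p = 0.0101).

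Of the neutrophil and monocyte list (mir-223, mir-23a, mir-27a and mir-24-2) 4 of 4 were higher at 30 months and 4 of 4 rose in the trend, where 9.17% and 10.7% of all tested precursors did. The summed level ran from 179 to 216 CPM at 2 months, 265 to 363 CPM at 9 months, 204 to 285 CPM at 15 months, 329 to 447 CPM at 24 months and 286 to 435 CPM at 30 months. Of the red cell list (mir-451a, mir-144 and the mir-486 copies, which share reads) mir-144 alone of 4 was lower at 30 months and in the trend. Of all tested precursors 5.03% were lower at 30 months and 9.17% in the trend. The summed level of that list ran from 717000 to 858400 CPM at 2 months and from 501700 to 778400 CPM at 30 months, with 460200 and 910200 CPM as the extremes of the ages between. Of the lymphocyte list (mir-150, mir-342, mir-155, mir-181a-1 and mir-181b-1) 0 of 5 passed in either comparison, and its sum ran from 1001 to 1327 CPM at 2 months, 1086 to 1435 CPM at 9 months, 838 to 1298 CPM at 15 months, 859 to 1605 CPM at 24 months and 688 to 1237 CPM at 30 months. Of the striated muscle list 0 of the 2 that could be tested passed in either comparison, and the log2 of its summed CPM ran from 4.54 to 7.87 at 2 months, 3.97 to 5.51 at 9 months, 2.90 to 7.64 at 15 months, 2.66 to 6.46 at 24 months and 3.22 to 5.44 at 30 months. All later ages overlapped the 2-month range of that sum. Beside the 0 calls of the lymphocyte and muscle lists, 5.03% of all tested precursors were lower and 9.17% higher at 30 months. In the trend 9.17% were lower and 10.7% higher. Counts of 0 from lists this short say nothing particular of them. No defining marker of the red cell, neutrophil and monocyte, lymphocyte, or platelet and endothelial lists was at 0 in any library.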

How the data were processed

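The 25 libraries come from total RNA and a TruSeq small RNA kit, per the labels. The authors deposited raw, unnormalised counts per microRNA precursor, 1 column a library. Per the submitters' processing notes, bcl2fastq 1.8.4, Trimmomatic 0.36 and SAMtools 1.3.1-9 were among the tools. For the aligner, counter, microRNA release, build and strand setting: not given in the sources used here. The rows of the table are precursors and do not separate the arms.

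Counts were fitted in 1 model with edgeR 4.0.16 (R 4.3.3), TMM factors, filterByExpr with age as the group (855 precursors left out) and robust dispersions, with Benjamini-Hochberg adjustment over all precursors kept. Log2 CPM used a prior count of 0.5. The SE of each edgeR log2 change was derived from its quasi-likelihood F statistic, as the size of the change over the square root of F. Exact tests of the ratio used scipy 1.17.1, and the 100000 shuffles within ages were drawn with numpy. All tests are two-sided. Fits were tested on simulated data. RefSeq positions matched the precursors by name. Named precursors were the members, the 5 most correlated with each (at least 10 CPM at some age), the 3 nearest on each side of the chromosome, those sharing a seed, up to 3 imprinted members by p in each direction and the defining markers. The members and lists were chosen with earlier results of these data known. Replicates follow the order of deposit.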

Additional observations from a re-analysis of the deposited data

Results flagged for a closer look

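The lowest and highest library of each age were compared with the other 4 by the gap to the nearest library as a share of the range, for the CPM of both members and for their ratio. Of 15 groups examined, 4 had a library past the 95% limit of Dixon's test, which chance flags in about 1 of 20 groups. The CPM of mir-298 in 30 months replicate 3 was 3.83, far above the other 4 libraries, whose highest was 0.828. The same library had a low log2 ratio of mir-296 to mir-298 of 0.73, since its mir-296 level of 6.38 CPM was like that of the rest. The log2 ratio of 24 months replicate 4 was low at 0.80, from 16 reads of mir-296 and 9 of mir-298. The log2 ratio of 2 months replicate 4 was high at 3.98, with the other 4 libraries between 3.49 and 3.61.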

How the results depend on the processing

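Every alternative kept the direction of both members' falls at all 4 ages. Values moved by more than 1 SD between libraries with library totals (mir-296 at 30 months −3.67, mir-298 at 24 months −2.42), after thinning (mir-298 at 24 months −2.24), and without the 3 libraries whose ratio stands apart (mir-298 at 30 months −3.49), a choice made after seeing the data. Library totals moved the median log2 change of all tested precursors by up to 0.36, at 24 months. The ratio no longer passed at 30 months with no pseudocount (−0.92, exact permutation, adjusted p = 0.0794), at 24 and 30 months as a difference of medians (−0.62 and −0.55, adjusted p = 0.0952 each) and without the 3 libraries (−0.59 and −0.42, adjusted p = 0.114 each, with fewer samples). Without 1 library at a time it ran from −0.40 to −0.21 at 9 months, −0.64 to −0.25 at 15 months, −1.26 to −0.67 at 24 months and −1.21 to −0.51 at 30 months. The calls at 24 and 30 months each ended (adjusted p = 0.0635) without 2 months replicate 1, 2, 4 or 5, and that at 30 months also without 30 months replicate 1, 2, 3 or 5, while 9 months passed without its replicate 4 (adjusted p = 0.0423). With 4 against 5 libraries the exact p cannot go below 0.0159. The 24-month test was at this limit in every run without 1 library of 2 or 24 months.

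The within-age correlation passed in no alternative run. It was −0.171 after age and lane, −0.132 after thinning, −0.106 without the 9 months group, −0.0105 without the 2 months group, 0.214 with library totals, 0.149 with upper quartile factors, 0.0154, 0.133 and 0.0163 without the 15, 24 or 30 months group, 0.408 without the 3 libraries (permutation p = 0.138), and from −0.0868 to 0.209 without 1 library. The imprinted list had 1 call in each alternative run on it, which leaves out thinning. Over all precursors, calls at 30 against 2 months were 48 (17 lower, 31 higher), 57 with library totals (6 and 51), 15 with no filter (7 and 8) and 34 with a filter of 10 CPM in 5 libraries (9 and 25). In the trend they were 67 (31 and 36), 89 with library totals (9 and 80), 56 with upper quartile factors (18 and 38), 39 with no filter, 42 with the 10 CPM filter (17 and 25), and 43 to 71 without 1 library, the lowest without 2 months replicate 3. The 10 CPM filter leaves out mir-298. Except where fewer libraries or precursors entered, the cause was not tested. No paired analysis was possible because replicate numbers follow the order of deposit and pair no animals across ages. Depth limits mir-298, with 6 to 27 reads at 30 months.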
